A study of Homo sapiens with 2 samples.

Results

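The ZNF genes of chromosome 19 are the subject of this report. A member was a protein-coding gene of chromosome 19 whose symbol is ZNF followed by a number, in GENCODE release 44 placed on hg19. The rule took 240 of the 19821 protein-coding genes, and it used the symbol and the position alone, with no measured value. SKNO-1 is an acute myeloid leukemia cell line with the t(8;21) translocation, which joins RUNX1 to RUNX1T1 into the fusion also called AML1-ETO. SKNO1-siAE is a line made from SKNO-1 with a lentiviral vector that carries siRNA against the AML1-ETO fusion site. Both lines were grown in RPMI medium with fetal calf serum, and genomic DNA of each was bisulfite-converted, captured with fixed epigenome-wide probes and sequenced (MCC-Seq). There was 1 library of each line and no replicate, so a difference below compares these libraries and cannot be told apart from a difference between cultures. SKNO1-siAE differs from SKNO-1 by the infection as well as by the silencing, its number of clones is not given, and the level of the fusion cannot be read from genomic DNA. The identity of the cells was not checked with marker genes, since the libraries hold no RNA.

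Most ZNF genes of chromosome 19 encode KRAB zinc finger proteins, which bind DNA through an array of C2H2 fingers and recruit the corepressor TRIM28 (KAP1) through the KRAB domain. Many of them repress transposable elements, and the family grew by tandem duplication, so its genes lie in clusters along the chromosome and the coding sequence of the fingers usually lies in the last exon. The start of such a gene commonly lies in a CpG-rich promoter that is free of methylation, while the finger exon is usually methylated. Methylation of a CpG-rich promoter generally goes with silence of its gene, and several of these promoters have been described as methylated in tumours. Expression was not measured here.

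The methylation level of a CpG cytosine was its methylated reads over all its reads, from 0 to 1, over the cytosines covered by 5 or more reads in each library. The level of a promoter was the mean over its cytosines between 1500 bp upstream and 500 bp downstream of a transcript start, where at least 10 were measured. Of the 240 members, 238 passed this minimum. ZNF404 had 0 shared cytosines in its promoter. ZNF865 had 4, all at level 0 in both libraries. The fewest among the measured promoters were 15 at ZNF534, which was methylated at 0.719 in SKNO-1 and 0.805 in SKNO1-siAE, and 16 at ZNF333, at 0 in both. A promoter held 15 to 169 cytosines with a median of 73.5, and its mean depth was 21.3 reads at the median member in SKNO-1 (from 7.72 to 79.7) and 20.2 in SKNO1-siAE (from 7.5 to 64.0). A read call is 1 read at 1 cytosine, so a read that spans several CpGs counts at each of them. The SKNO-1 library gave 83620068 read calls over 4713346 cytosines and the SKNO1-siAE library 82164216 over 4694016, and over the 3168726 shared cytosines the mean level was 0.587 and 0.655. Differences are given as SKNO-1 minus SKNO1-siAE, and a promoter was called at a difference of at least 0.2. A gain is a level that was higher in SKNO-1 than in SKNO1-siAE and a loss one that was lower there, with no order in time implied. Intervals below are 95% Wilson intervals on the pooled read calls of a promoter or exon. Where no read call was methylated, the share that a count of 0 allows is 3 counts of the total. Both cover counting error only and are too narrow, since calls of the same read, and reads that came from PCR without molecular identifiers, are not independent.

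The sequences below show what the largest differences look like at the bases. They are stretches of 200 bases upstream of the starts of 4 members, 2 with the largest gain in SKNO-1 and 2 with the largest loss, among members whose upstream stretch holds no annotated exon. They are read from GRCh37 (hg19) 5′ to 3′ on the strand of the gene, and capitals mark the CpGs measured in both libraries.
ZNF814: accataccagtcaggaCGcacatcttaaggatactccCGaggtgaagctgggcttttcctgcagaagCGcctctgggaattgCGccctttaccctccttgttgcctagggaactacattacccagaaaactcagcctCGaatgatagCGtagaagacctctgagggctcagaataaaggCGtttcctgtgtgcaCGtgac
ZNF20: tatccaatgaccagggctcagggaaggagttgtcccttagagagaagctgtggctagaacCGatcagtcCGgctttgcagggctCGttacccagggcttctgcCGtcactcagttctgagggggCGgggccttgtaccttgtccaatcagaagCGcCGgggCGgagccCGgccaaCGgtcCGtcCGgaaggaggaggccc
ZNF555: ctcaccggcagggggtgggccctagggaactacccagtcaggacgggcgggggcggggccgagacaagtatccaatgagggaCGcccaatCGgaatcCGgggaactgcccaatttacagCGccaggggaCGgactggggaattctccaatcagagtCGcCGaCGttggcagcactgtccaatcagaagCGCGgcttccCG
ZNF709: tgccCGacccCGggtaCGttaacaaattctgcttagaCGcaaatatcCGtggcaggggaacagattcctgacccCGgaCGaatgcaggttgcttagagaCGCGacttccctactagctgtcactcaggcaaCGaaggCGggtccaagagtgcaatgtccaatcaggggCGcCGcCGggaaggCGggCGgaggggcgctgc
The ZNF814 stretch lies on the minus strand at chr19:58400443-58400642, ending 38 bases before the start, and 249 of its 261 read calls were methylated in SKNO-1 against 5 of 268 in SKNO1-siAE. The ZNF20 stretch, on the minus strand at chr19:12251171-12251370, had 369 methylated of 403 read calls in SKNO-1 and 0 of 392 in SKNO1-siAE, which allows a share of up to 0.765%. All 12 CpGs of this stretch of ZNF20 were measured. The ZNF555 stretch, on the plus strand at chr19:2841235-2841434, ran the other way, with 0 methylated of 165 read calls in SKNO-1 (allowing up to 1.82%) and 346 of 349 in SKNO1-siAE. The ZNF709 stretch, on the minus strand at chr19:12595631-12595830, had 2 methylated of 737 read calls in SKNO-1 and 1113 of 1190 in SKNO1-siAE. Each of the 4 stretches was thus mostly methylated in one library and nearly free of methylation in the other. They hold 8 CpGs at ZNF814, 12 at ZNF20, 16 at ZNF555 and 17 at ZNF709.

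The promoters of the family differed in both directions. At 27 members (11.3%) the level was at least 0.2 higher in SKNO-1, where 2.92% of all 17395 measured protein-coding promoters passed. At 37 members (15.5%) it was at least 0.2 lower, where 14.0% of all promoters passed. The remaining 174 members lay within 0.2. Gains were thus more common than over all genes, while the share of losses lay close to that of all genes. The median difference over the 238 members was 0, with an interquartile range of -0.0681 to 0.0230, beside a median of -0.00908 over all genes. Large differences stood on both sides. At a difference of at least 0.5, 14 members were higher (5.88%, against 0.816% of all genes) and 24 were lower (10.1%, against 4.27%).

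Neither other chromosome 19 genes nor ZNF genes elsewhere had such a share of gains. Of the 1106 measured protein-coding genes of chromosome 19 that are not members, 28 were higher (2.53%) and 159 lower (14.4%). Of 223 measured ZNF genes of other chromosomes, 7 were higher (3.14%) and 30 lower (13.5%). These shares are a description, because neighbouring genes are not independent and no test over genes was made.

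**Figure D1:**
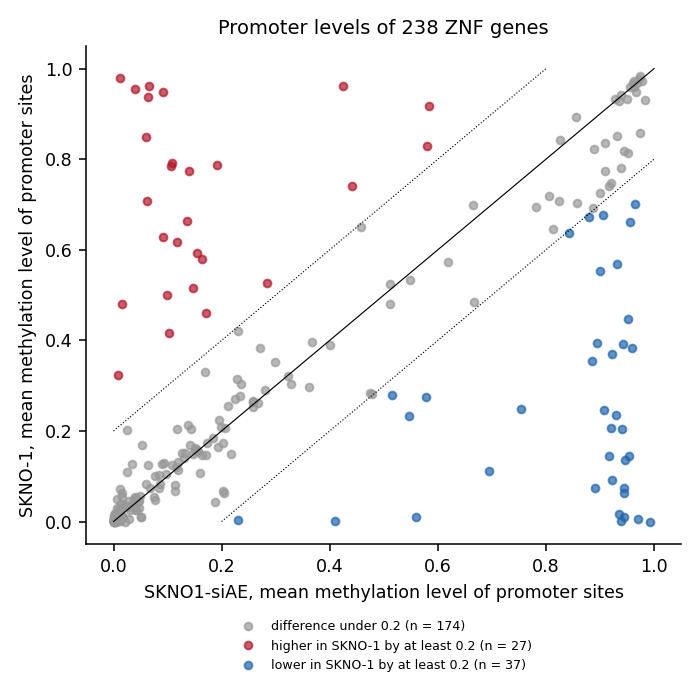
Mean methylation level of the promoter in SKNO1-siAE (x axis) and in SKNO-1 (y axis), both from 0 to 1, with 1 point for each of 238 members coloured by whether the difference reached 0.2. Points cluster near the lower left and upper right corners, and 27 lie well above and 37 well below the diagonal.

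Most members had the same state in both libraries. With under 0.2 taken as low and over 0.8 as high, 102 promoters were low in both libraries, 22 were high in both and 35 were intermediate in both. The share low in both, 42.9%, was close to the 43.4% of all promoters, and the share high in both was 9.24% against 14.8%. Opposite states were rarer. At 6 members the promoter was high in SKNO-1 and low in SKNO1-siAE, and at 12 it was low in SKNO-1 and high in SKNO1-siAE. SKNO1-siAE held 61 high promoters and 46 intermediate ones, whereas SKNO-1 held 31 high and 85 intermediate ones. The intermediate promoters were therefore more numerous in SKNO-1, among them 27 that were high in SKNO1-siAE and 23 that were low there.

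The members with a gain had mostly unmethylated promoters in SKNO1-siAE. The 27 had a median of 0.740 in SKNO-1 against 0.107 in SKNO1-siAE, and 22 were low in SKNO1-siAE. The 37 members with a loss were mostly methylated in SKNO1-siAE, at a median of 0.922 against 0.234 in SKNO-1, and 29 were high there. These medians describe promoters that were chosen by their difference. Single cytosines were tested on their reads with Fisher's exact test (2-sided, Benjamini-Hochberg adjustment over all shared cytosines), which compares 2 libraries and not conditions. In the promoters with a gain, 1370 of 2111 cytosines were called higher and 44 lower, and in those with a loss 1646 of 2515 were called lower and 22 higher. Over all shared cytosines, 4.40% were called higher and 11.7% lower. The promoters were chosen by the mean of these same cytosines, so an excess of calls in that direction was fixed in advance.

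**Figure D2:**
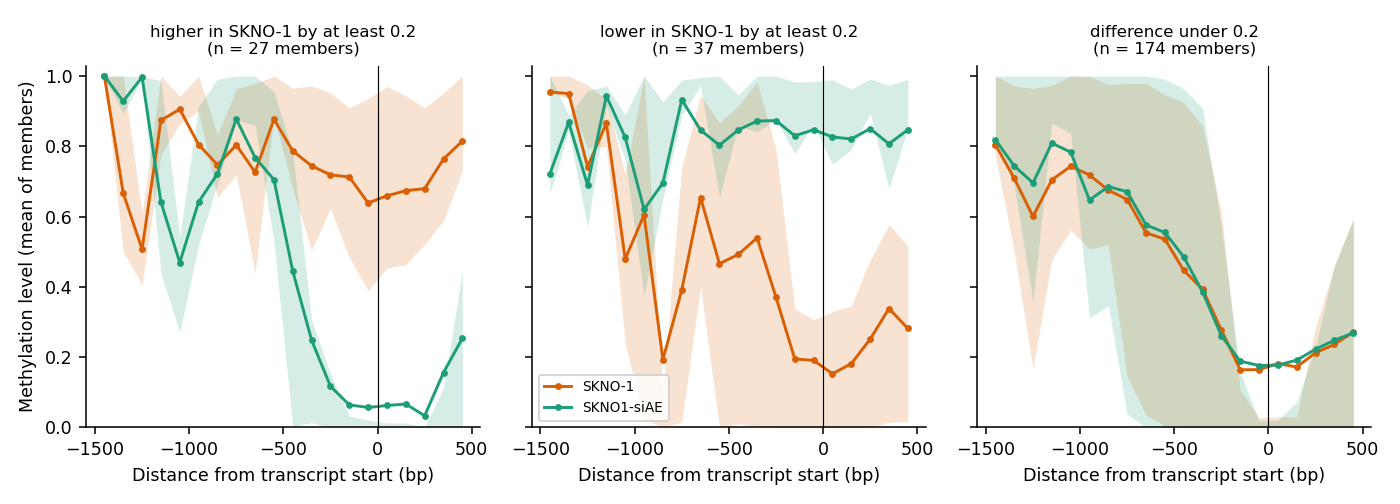
Mean methylation level (y axis, 0 to 1) in bins of 100 bp against distance from the transcript start in bp (x axis), in SKNO-1 and SKNO1-siAE, for members with a higher promoter (n = 27), a lower promoter (n = 37) and neither (n = 174), with shading from the lower to the upper quartile of members. The libraries lie far apart around the start and downstream of it, and members with a gain stand at 0.639 against 0.0564 and members with a loss at 0.190 against 0.847 in the bin just upstream of the start.

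The differences were compared along the promoter. In the 100 bases before the transcript start, members with a gain averaged 0.639 in SKNO-1 and 0.0564 in SKNO1-siAE, over 341 cytosines of 26 members. Members with a loss averaged 0.190 and 0.847 there, over 381 cytosines of 37 members. Toward 500 bp downstream both classes still stood apart, at 0.815 against 0.253 for members with a gain and 0.282 against 0.847 for members with a loss in the bin from 400 to 499 bp. Upstream of -600 bp each bin held cytosines of at most 10 members with a gain or 7 with a loss, and the gap between the libraries varied from bin to bin with no order read from it. In a core window from 500 bp upstream to 200 bp downstream, the median level of the members with a gain was 0.749 in SKNO-1 and 0.0286 in SKNO1-siAE, and that of the members with a loss 0.152 and 0.924. The members within 0.2 averaged 0.164 and 0.176 in the bin just upstream, a mean over low, intermediate and high promoters.

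At the largest gains a promoter was nearly unmethylated in SKNO1-siAE and nearly fully methylated in SKNO-1. ZNF814, a zinc finger gene near the end of the long arm, had a level of 0.978 in SKNO-1 and 0.0125 in SKNO1-siAE over 54 cytosines. Pooled over 1103 read calls in SKNO-1 its methylated share was 0.983 (0.973 to 0.989) and over 1114 in SKNO1-siAE 0.0162 (0.0102 to 0.0254), and all 54 cytosines were called higher. ZNF829 and ZNF568 start head to head and share 107 cytosines, so they are 1 observation and not 2. ZNF829 stood at 0.956 against 0.0397 and ZNF568, whose mouse counterpart represses a placental transcript of Igf2, at 0.961 against 0.0665. ZNF20, whose upstream stretch is printed above, stood at 0.938 against 0.0641, and 63 of its 69 cytosines were called higher. ZNF506 stood at 0.948 against 0.0907 over 65 cytosines. ZNF667, described as methylated in tumours, stood at 0.849 against 0.0607 over 97. The next were ZNF229 (0.792 against 0.107), ZNF234 (0.786 against 0.107), ZNF577 (0.707 against 0.0626) and ZNF841 (0.775 against 0.139). Of these, ZNF229 depended on how cytosines were weighted, since its difference was 0.684 as a mean over cytosines and 0.465 over pooled read calls.

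At the largest losses a promoter was nearly fully methylated in SKNO1-siAE and nearly unmethylated in SKNO-1. ZNF555 stood at 0 in SKNO-1 and 0.992 in SKNO1-siAE over 18 cytosines. None of its 234 read calls in SKNO-1 was methylated, which allows a share of up to 1.28%, and over 536 in SKNO1-siAE the share was 0.994 (0.984 to 0.998). Its depth was thus unequal between the libraries. ZNF433 stood at 0.00649 against 0.969 over 97 cytosines, 94 of which were called lower. ZNF709 stood at 0.00201 against 0.940 over 98 cytosines, and 95 of them were called lower. ZNF763 stood at 0.0104 against 0.943 over 101. These 3 genes lie in 1 cluster on the short arm, and so does ZNF442 (0.0627 against 0.945). ZNF726 (0.0156 against 0.936), ZNF254 (0.0749 against 0.945), ZNF682 (0.0911 against 0.922) and ZNF730 (0.136 against 0.946) lie together in the next cluster, nearest to the centromere. ZNF792 (0.0737 against 0.891) is the one large loss of the 10 largest that lies on the long arm.

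**Figure D3:**
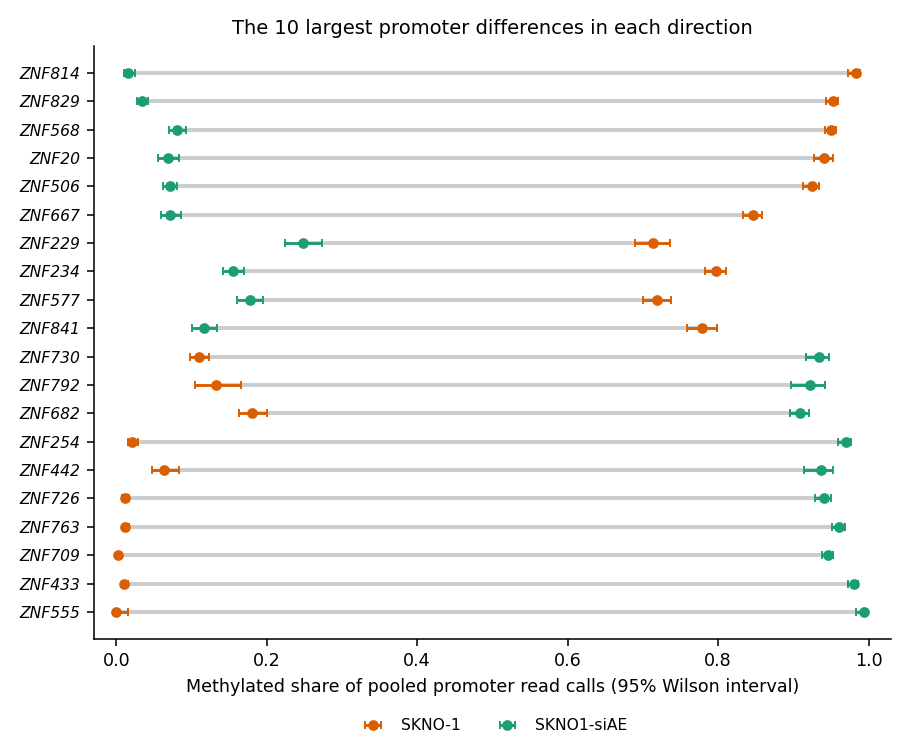
Methylated share of pooled promoter read calls (x axis, 0 to 1) in SKNO-1 and SKNO1-siAE for the 10 members with the largest gain and the 10 with the largest loss (rows), with bars for the 95% Wilson interval, which covers counting error only and is too narrow where reads span several CpGs. The libraries stand at opposite ends of the axis in nearly all rows, and ZNF229 and ZNF577 have the smallest gaps.

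Near the threshold the members form a continuum. ZNF582, at 0.526 against 0.285, was the smallest gain, and ZNF90, at 0.651 against 0.458, stood just outside it. ZNF99, at 0.636 against 0.843, was the smallest loss, and ZNF570, at 0.281 against 0.478, stood just outside. ZNF582 is among the members whose call is not firm, since its difference was 0.168 with the strands of a CpG merged and 0.0363 with each library's own cytosines.

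Gains and losses lay in different places along the chromosome. Members were put in a new cluster wherever neighbours lay over 1 Mb apart, which gave 9 clusters of at least 5 members, with 231 members inside and 9 outside. The clusters up to ZNF254, the last member before the centromere, held most losses. Of the 83 measured members up to ZNF254, 27 were lower (32.5%) and 4 higher (4.82%). Of the 155 after it, 10 were lower (6.45%) and 23 higher (14.8%). This boundary was chosen after the values were seen, so the contrast is a description. The other genes of chromosome 19 had no such contrast, with 72 lower (14.4%) and 12 higher (2.4%) of 500 before the boundary and 87 lower (14.4%) and 16 higher (2.64%) of 606 after it. These genes were taken wherever they lie on the chromosome, and those inside a cluster are given below with that cluster. Whether the contrast belongs to the members or to their regions was not tested.

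**Figure D4:**
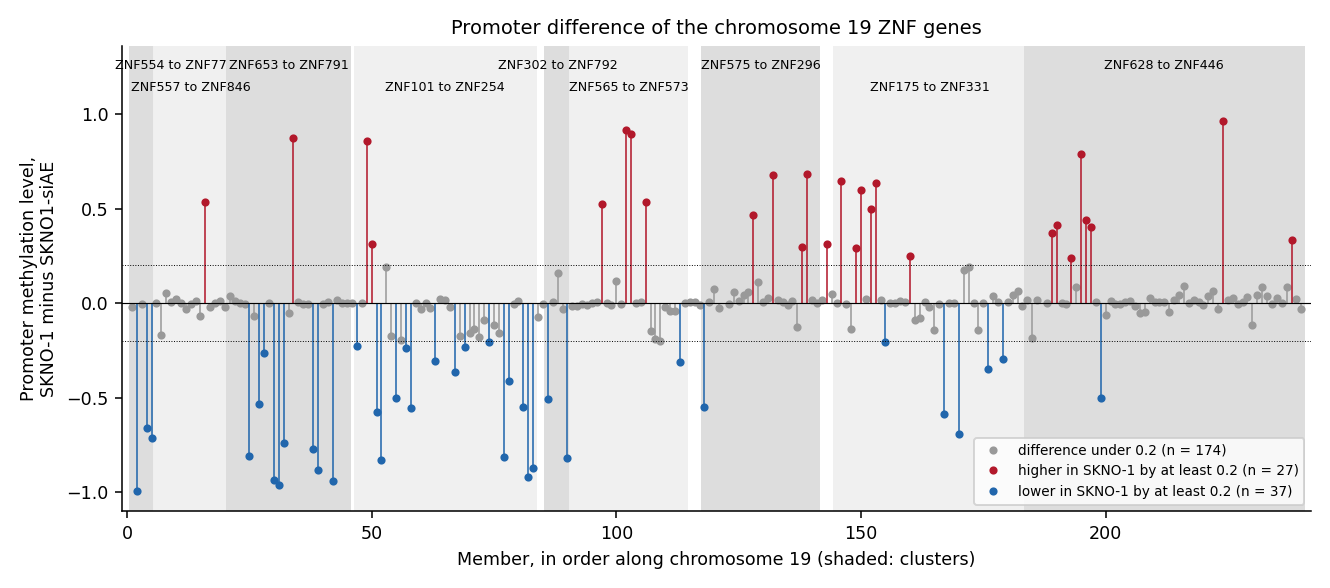
Promoter methylation level, SKNO-1 minus SKNO1-siAE (y axis, -1 to 1), of 238 members in their order along chromosome 19 (x axis), with the clusters shaded and points coloured by whether the difference reached 0.2. Most of the 37 losses stand among the first 83 members and most of the 27 gains among the 155 that follow.

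The first cluster, ZNF554 to ZNF77 at 2.8 to 2.9 Mb, had 3 losses among its 5 members, at ZNF555, ZNF57 (0.246 against 0.907) and ZNF77 (0.206 against 0.920). Depth at its median member was 9.19 reads in SKNO-1 against 18.1 in SKNO1-siAE, and relative to all shared read calls it held 0.473 times as many in SKNO-1 as in SKNO1-siAE. In the other clusters this ratio lay between 0.987 and 1.11. The part of the depth in the losses of the first cluster was not tested. Without this cluster, 24 of 78 members up to ZNF254 were lower (30.8%).

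In the second cluster, ZNF557 to ZNF846 at 7.1 to 9.9 Mb, 14 of 15 members lay within 0.2. The exception was ZNF426, a gain of 0.537 (0.629 against 0.0914). This cluster's 45 measured genes that are not members had 9 losses and 2 gains. The third cluster, ZNF653 to ZNF791 at 11.6 to 12.8 Mb, had 9 losses and 1 gain among 25 members. The gain was ZNF20, whose nearest called neighbours were losses, ZNF878 before it (0.203 against 0.941) and ZNF563 after it (0.145 against 0.917). The cluster's other losses were ZNF491, ZNF439 and ZNF69 besides the 4 named above. Its 8 measured genes that are not members had 1 loss and 0 gains.

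The cluster next to the centromere, ZNF101 to ZNF254 at 19.8 to 24.3 Mb, had 15 losses and 2 gains among 37 members and was the one with the most losses. Over its members the median was 0.382 in SKNO-1 against 0.824 in SKNO1-siAE, so that 23 of its members stood over 0.5 in SKNO1-siAE and 14 in SKNO-1. The gains were the neighbours ZNF506 and ZNF253 (0.416 against 0.102). Among the losses were ZNF93 (0.382 against 0.959), ZNF85 (0.370 against 0.922), ZNF737 (0.395 against 0.894) and ZNF681 (0.392 against 0.943), at which SKNO-1 was intermediate rather than unmethylated. ZNF43 (0.569 against 0.932) and ZNF257 (0.676 against 0.906) differed less. Only 2 measured genes of this cluster are not members. They had 1 loss and 0 gains, with a median of 0.448 in SKNO-1 against 0.869 in SKNO1-siAE.

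After the centromere losses were few. ZNF302 to ZNF792 at 35.2 to 35.5 Mb held 2 losses among 5 members, at ZNF792 and ZNF302 (0.250 against 0.754). ZNF565 to ZNF573 at 36.7 to 38.3 Mb held 4 gains and 1 loss among 24 members. Its gains were the pair ZNF829 and ZNF568, ZNF461 (0.663 against 0.136) and ZNF875 (0.961 against 0.424), and its loss was ZNF607 (0.234 against 0.546). The read calls of this cluster were 1.11 times as many in SKNO-1 on the same scale. Its 6 measured genes that are not members had 1 gain and 1 loss. ZNF575 to ZNF296 at 44 to 45.6 Mb held 4 gains and 1 loss among 23 measured members. Its gains were ZNF223 (0.480 against 0.0161), ZNF234, ZNF285 (0.740 against 0.442) and ZNF229, and its loss was ZNF575 (0.0110 against 0.560). Among its 29 measured genes that are not members there were 1 gain and 2 losses.

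The clusters at the far end of the long arm were the largest. ZNF175 to ZNF331 at 52.1 to 54.1 Mb was mixed, with 6 gains and 5 losses among 39 members. Within it, the gains stood before the losses with 1 exception. ZNF577, ZNF350 (0.461 against 0.170, a gene also known as ZBRK1, a partner of BRCA1), ZNF615 (0.787 against 0.191), ZNF432 (0.616 against 0.118), ZNF841 and ZNF528 (0.829 against 0.579) were higher, and ZNF836, which lies between ZNF841 and ZNF528, was lower (0.673 against 0.880). The losses beyond them were ZNF600 (0.111 against 0.694), ZNF320 (0.236 against 0.929), ZNF665 (0.552, a difference of -0.348) and ZNF525 (0.662 against 0.955). This cluster's 11 measured genes that are not members had 0 gains and 1 loss. The last cluster, ZNF628 to ZNF446 at 56.0 to 59.0 Mb, had 8 gains and 1 loss among 56 measured members, the loss being ZNF835 (0.447 against 0.951). Its 43 measured genes that are not members had 2 gains and 4 losses. Outside the clusters, ZNF114 was the only called member of 9, at 0.324 against 0.00881.

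Adjacent members shared a call in places. Of 212 neighbouring pairs inside clusters whose promoters did not overlap, 113 had no called member, 82 had 1, 6 were both higher, 10 were both lower and 1 pair was opposite. The longest runs were 3 members. ZNF763, ZNF433 and ZNF878 were lower in a row, as were ZNF681, ZNF726 and ZNF254, and ZNF667, ZNF471 (0.592 against 0.155) and ZNF470 (a difference of 0.401) were higher in a row. Another 8 pairs shared promoter cytosines, and of these ZNF829 with ZNF568 and ZNF580 with ZNF581 were both called, each pair resting on 1 set of reads. The level of each promoter was also taken over the cytosines of each DNA strand alone. The cytosines measured on the strands need not belong to the same CpGs, so the strands of single CpGs were not compared. Within a library these promoter levels differed by at least 0.2 at 20 of 235 members in SKNO-1, by up to 0.835, and at 12 in SKNO1-siAE, by up to 0.775. Of 63 called members with enough cytosines on both strands, 63 had the same sign on both and 55 passed 0.2 on both, a count that the call over both strands partly fixes.

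Members described as methylated in tumours, a list of 11, had gains or lay within 0.2. ZNF132 (0.917 against 0.584), ZNF471, ZNF577, ZNF582 and ZNF667 were higher in SKNO-1 and none was lower, where 2.92% of all promoters and 11.3% of the members were higher and 14.0% of all promoters were lower. The list was chosen with earlier results of these data known, so the count is a description. The call of ZNF582 was not firm (0.168 with strands merged, 0.0363 with each library's own cytosines). The difference of ZNF132 was 0.333, and 0.609 in the core window. That of ZNF471 was 0.438, with 0.703 at 10 or more reads per cytosine and 0.320 with each library's own cytosines. The median difference over the 11 was 0.00556. The rest kept their state. ZNF154 (0.978 against 0.972) and ZNF177 (0.959 against 0.962) were methylated in both libraries, as was ZNF135 (0.857 against 0.974). ZNF382 (0.0145 against 0.00969) and ZNF671 (0.00116 against 0.00899) were unmethylated in both. ZNF331, an imprinted gene, lay close to the middle in both, at 0.534 against 0.548 over 140 cytosines.

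Members known to repress transposable elements, a list of 5, had 0 gains and 1 loss, where 2.92% of all promoters were higher and 14.0% lower, so the count is no result about the list. The loss was ZNF93, which represses LINE-1 elements, at 0.382 against 0.959. ZNF91, a repressor of SVA elements, was unmethylated in both libraries (0 against 0.00344). ZNF808 was methylated in both (0.983 against 0.974), and ZNF649 (0.262 against 0.267) and ZNF765 (a level of 0.208 in SKNO-1 and a difference of 0.0084) lay within 0.2. Other genes of the pathway were read in the same way. Of 13 genes that serve KRAB repression, namely the corepressor TRIM28, the methyltransferase SETDB1 with ATF7IP, the HP1 proteins CBX1, CBX3 and CBX5, the NuRD remodelers CHD3 and CHD4, the HUSH genes MPHOSPH8, TASOR and PPHLN1 with MORC2, and ZNF274, none reached 0.2 in either direction, where 2.92% of all promoters were higher and 14.0% lower, so 0 of 13 is no result about the list. TASOR, at -0.0308, stood at 0.235 when each library's own cytosines were used. Their differences ran from -0.0308 to 0.0846, the highest at ZNF274 (0.109 against 0.0243), which is a member that recruits SETDB1 to the finger exons of other ZNF genes.

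Some promoters were intermediate in both libraries, with methylated and unmethylated read calls in each. Among those within 0.2, the 5 with the most promoter read calls over both libraries were ZNF431 (0.207 against 0.205), ZNF331, ZNF264 (0.298 against 0.361), ZNF569 (0.284 against 0.475) and ZNF492 (0.694 against 0.782). ZNF569 shares 131 cytosines with ZNF570, and whether single molecules were mixed or the molecules differed cannot be read from counts per cytosine.

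The last exon, which usually carries the fingers, was methylated in both libraries. It was measured with at least 10 cytosines outside promoters at 61 members, while 75 had none and 104 had 1 to 9. Its median was 0.961 in SKNO-1 against 0.963 in SKNO1-siAE, and 52 of 61 stood over 0.8 in both. ZNF580 was the only one under 0.2 in both. The last exon was more methylated in SKNO-1 at 1 member, ZNF784 (0.971 against 0.546), where 2.78% of all last exons passed. At 3 members it was less methylated in SKNO-1, where 10.7% of all passed, namely ZNF667 (0.225 against 0.967 over 11 cytosines), ZNF285 (0.358 against 0.915 over 14) and ZNF331 (0.724 against 0.944 over 16). This count depended on the processing. It was 0 of 38 measured exons with strands merged, 1 of 37 in the coding part alone, and 0 of 24 with at least 20 cytosines, a minimum that none of the 3 reaches. At ZNF667, 79 of 363 read calls were methylated in SKNO-1 (a share of 0.218, interval 0.178 to 0.263) and 418 of 429 in SKNO1-siAE (0.974, interval 0.955 to 0.986). At ZNF331, 3 of the 16 cytosines were called lower, and over pooled read calls its shares were 0.8 and 0.960. ZNF667 and ZNF285 thus had a more methylated promoter and a less methylated last exon in the same library.

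This opposite sign of promoter and exon was looked for after these were seen. With the minimum lowered to 3 cytosines, 15 members with a promoter gain had a measured last exon, and at 5 of them it was lower in SKNO-1 and at 0 higher. Without ZNF667 and ZNF285, whose values prompted the count, it was lower at 3 of 13 (23.1%). The 5 were ZNF667, ZNF285, ZNF229 (0.318 against 0.930), ZNF470 (0.391 against 0.868) and ZNF615 (0.694 against 0.915). Of 17 members with a promoter loss, 0 had a lower last exon and 1 a higher one, ZNF563 (0.956 against 0.615 over 6 cytosines). The share of gains without ZNF667 and ZNF285 was close to that over all genes with a promoter gain, of which 22.7% had a lower last exon and 9.03% a higher one. Over all genes with a promoter loss these shares were 18.2% and 7.21%. With 3 or 4 cytosines at ZNF229, ZNF470 and ZNF615, these levels are imprecise.

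Over the gene body, taken as the gene outside all promoters, most members differed little. Of 164 measured members, 15 bodies (9.15%) were lower and 7 (4.27%) higher in SKNO-1, where 10.1% and 2.03% of all gene bodies passed. Among the 18 measured members with a promoter gain, 4 bodies were lower (22.2%, against 18.5% over all genes with a promoter gain), at ZNF667 (0.225 against 0.967), ZNF229 (0.199 against 0.892), ZNF285 (0.358 against 0.915) and ZNF470 (0.744 against 0.946). At 2 the body was higher along with the promoter (11.1%, against 6.27% over all such genes), at ZNF506 (0.979 against 0.464) and ZNF253 (0.883 against 0.652). Among the 23 measured members with a promoter loss, 5 bodies were lower too (21.7%) and 0 higher, near the 19.6% and 2.11% over all genes with a promoter loss. ZNF878 (0.170 against 0.967) and ZNF792 (0.0974 against 0.756) were lower over promoter and body alike, and the bodies of ZNF730 (0.497 against 0.903), ZNF491 (0.584 against 0.977) and ZNF93 (0.556 against 0.921) were lower by less than these. At ZNF555, ZNF254, ZNF709 and ZNF20 the promoter differed while the body stayed over 0.8 in both libraries. The measured cytosines of the ZNF667 and ZNF285 bodies are those of their last exons, so body and exon are the same observation there.

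Sequence composition was also compared between the classes. The median ratio of observed to expected CpG over 2001 bases around the start was 0.587 at members with a gain, 0.529 at those with a loss and 0.617 at the rest, against 0.637 over all genes. The RUNX motif TGTGGT was found on either strand in 66.7% of the members with a gain, 62.2% of those with a loss and 69.5% of the rest, and in 62.1% of all protein-coding promoters of this length. It was in none of the stretches printed above. A match of 6 letters is a description and not a bound site.

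Depth differed between the groups of members. The median ratio of depth in SKNO-1 to that in SKNO1-siAE was 1.14 at promoters with a gain, 1.09 at those with a loss and 0.999 at the rest. Where the depths lay within 1.5 times of each other, 23 of 209 members were higher (11%) and 31 lower (14.8%), beside 2.74% and 13.4% of the 13006 genes that met this limit. Reads of near-identical ZNF copies can be assigned to the wrong member, although the study used unique alignments, and how much of this reached the counts was not tested.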

How the data were processed

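Bisulfite capture libraries of SKNO-1 and SKNO1-siAE, 1 each, were compared. According to the methods and the submitters' processing notes, the authors sequenced 125-bp paired reads, trimmed them (cutadapt 1.4.2 is among the tools named), used BSMAP 2.73 for alignment to hg19 and kept calls from uniquely placed reads. The authors deposited raw counts of methylated and unmethylated reads for each CpG cytosine and strand, without normalization, where 5 or more reads covered it. Removal of PCR duplicates is not given in the sources used here. The 5-aza-2 deoxycytidine libraries were not used here.

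Levels were averaged over shared cytosines, with equal weight, in the merged promoter interval of each gene that held the most cytosines. The last exon was that of the canonical transcript, outside promoters. Wilson and Newcombe 95% intervals, Fisher's exact test and Benjamini-Hochberg adjustment (threshold 0.05, with a difference of at least 0.2) were computed with Python 3.11.15, numpy 2.4.6, scipy 1.17.1 and pandas 2.3.3, and the test was checked on simulated reads. With 1 library in each group, no test between conditions was possible. Promoter sequences were read from GRCh37.

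Named members were the 10 largest differences in each direction, the largest of each cluster, up to 5 last exons in each direction, those around the thresholds, up to 5 promoters intermediate in both libraries and within 0.2, by total read calls, and 3 lists: members described as methylated in tumours, members that repress transposable elements, and genes of KRAB repression. Other called members were named after their values were seen. The members and lists were chosen with earlier results of these data known. Alternatives changed the reads per cytosine, the weighting, the strands, the shared cytosines, the minimum of cytosines, the difference, the start, the window and the gap between clusters. Limits on depth, a minimum of 3 cytosines, gene bodies and the split at ZNF254 were added after seeing the data.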

Additional observations from a re-analysis of the deposited data

How the results depend on the processing

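Over 87 alternative counts and medians, 80 stayed near the value given, and none of the called members named by rule reversed. A count was near within 1.5 times. A median was near within the median half-width of the counting interval of a single promoter or last exon. That is a wide limit for a median over many members, so the medians could hardly fail it. The number of promoters higher in SKNO-1 ran from 23 to 30 and of those lower from 30 to 43. Up to ZNF254, 22 to 30 members were lower and 4 or 5 higher, and after it 8 to 13 were lower and 18 to 26 higher. The counts of last exons changed by more, and most of these alternatives also changed the number of exons measured, 61 in the main count. The cause of the other changes was not tested. Instead of 1 exon higher in SKNO-1 there were 0 of 37 with at least 10 reads per cytosine, 2 of 61 with pooled read calls and 4 of 140 with at least 3 cytosines. Instead of 3 lower there were 0 of 38 with strands merged, 0 of 24 with at least 20 cytosines, 1 of 37 in the coding part alone and 8 of 140 with at least 3 cytosines. The 3 exons hold 11, 14 and 16 cytosines, so none of them could be counted with at least 20. Of 217 alternative differences of 28 named called promoters, 214 stayed past 0.2. The exceptions were ZNF582 (0.168 with strands merged, 0.0363 with each library's own cytosines) and ZNF99 (-0.162 with at least 10 reads). Among named promoters within 0.2, TASOR (0.235), ZNF569 (-0.203) and ZNF570 (-0.22) passed it with each library's own cytosines, ZNF90 (0.214), ZNF534 (-0.235), ZNF569 (-0.233) and ZNF570 (-0.239) with strands merged, and ZNF570 (-0.413) at the canonical start. A gap of 0.5 Mb gave 10 clusters and one of 2 Mb gave 6. The median half-width of the counting interval was 0.0230 for a promoter difference and 0.0303 for a last exon. No paired analysis was possible because each line had 1 library. The count of fingers per protein was not made.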
